A study of Homo sapiens with 6 samples.

Results

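Chemokines are small secreted proteins that draw leukocytes along a gradient, and 10 chemokine genes known from keratinocytes are described here, CXCL1, CXCL2, CXCL3, CXCL5, CXCL8, CXCL14, CXCL16, CCL2, CCL5 and CCL20. They were taken with every array probe that carries their symbol in the platform annotation, which gave 14 probes, and they stand among 20046 genes on the array. The histamine group held 3 arrays of HaCaT cells exposed to 1 µg/ml histamine for 24 h, and the control group held 3 arrays of HaCaT cells labelled as controls. HaCaT is a spontaneously immortalized line of human skin keratinocytes. All cells of both groups were grown in DMEM with 1.5 mM calcium and 10% fetal serum, and labelled copies of their total RNA were read on Illumina HT-12 bead arrays. The sample names of the histamine arrays share a number prefix, and those of the control arrays share another. What the prefix stands for is not given, so a difference between these series cannot be told apart from histamine. Nothing in the labels says whether the 3 samples of a group came from separate cultures. The p-values thus rest on a spread between samples that may be purely technical.

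The CXC chemokines with a glutamate-leucine-arginine motif before their first cysteines, here CXCL1, CXCL2, CXCL3, CXCL5 and CXCL8, act on neutrophils through CXCR2, and CXCL8 also through CXCR1. CCL2 draws monocytes through CCR2, CCL5 draws T cells and monocytes, and CCL20 draws lymphocytes and dendritic cells that carry CCR6. CXCL14 is made constitutively in normal epidermis, and CXCL16 is a membrane-bound chemokine that proteases release as a ligand of CXCR6. Many of these genes are induced in keratinocytes by interleukin 1 and tumour necrosis factor through the transcription factor NF-kB.

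A probe was called detected on an array with a detection p-value under 0.05, that is, when its signal ranked above nearly all negative control beads. The median probe signal was 121 to 124 on the histamine arrays and 122 to 141 on the control arrays, and the share of probes detected was 37.5% to 37.8% with histamine and 36.7% to 40.9% in controls. Of the keratinocyte markers on the array, KRT5, KRT14, DSG3, CDH1 and EPCAM were all detected on 6 arrays. Their levels were not all equal between groups. DSG3 was lower with histamine by 0.88 ± 0.13 on the log2 scale (limma adjusted p = 0.000167). KRT14 was higher by 0.53 ± 0.10 (limma adjusted p = 0.00166), while KRT5 and CDH1 were not called. EPCAM gave -0.11 on its brightest probe, also not called, and -0.34 and 1.18 on its others. Skeletal muscle transcripts were present on all 3 histamine arrays and were by far the highest on replicate 1. The normalized log2 intensity of ACTA1, skeletal muscle actin, was 13.93, 9.53 and 9.21 on histamine replicates 1, 2 and 3, against 4.52, 4.66 and 4.54 on the control replicates, where it was not detected. The summed level of the 9 muscle markers was 1390 to 37400 normalized intensity units on the histamine arrays against 405 to 430 on the control arrays. Among immune cell markers, PTPRC, CD3E, TYROBP, FCER1A, KIT, CPA3 and PECAM1, 7 of the 13 on the array, were detected on no array. The summed level of those 13 markers was 1740 to 1820 on the histamine arrays against 1380 to 1480 on the control arrays. Of the 13, only CD14 and CD68 passed the detection filter, and both were detected on all 6 arrays. CD68 is a lysosomal protein of macrophages that other cells also make. It was called higher on its brightest probe, by 1.26 ± 0.19 on the log2 scale (limma adjusted p = 0.000188). Its other probes gave log2 differences of 0.16 and -0.11, and the call was lost on the mean of its kept probes. CD14 gave 0.16 ± 0.15 and was not called. Of the 7 fibroblast markers none passed the detection filter, and their summed level was 341 to 413 against 349 to 361. Without histamine replicate 1, the median log2 difference of the 5 measured muscle markers was 1.95, against 3.55 with all arrays. Leaving it out thus lowers this signal and does not remove it. All 5 were still called higher, but with robust moderation on all arrays none was. The brightest probes of ACTA1, CKM, MYH7 and MYL1 were detected on every histamine array and on no control array. These probes passed the detection filter only through the histamine arrays, so their calls lend no support. Another kept probe of MYL1 was detected on 2 histamine arrays and 1 control array. The part of the muscle and immune transcripts in the results below was not tested. Such bulk values cannot tell a change in the number of cells that make a transcript from a change in transcript per cell.

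Of the 10 chemokines, 6 passed the detection filter, and all 6 were higher with histamine. CCL2, CXCL8, CXCL1, CCL5 and CXCL16 were detected on every array of both groups, while CCL20 was detected on every histamine array and on no control array. CCL20 therefore passed the filter only through the group in which it was high and had to differ. By limma, with Benjamini-Hochberg adjustment over 10406 genes and a threshold of 0.05, 9.29% of all genes tested were called higher, and so were 9.75% of the genes detected on all 6 arrays. For each of the 6 measured chemokines the groups did not overlap, as for 37.4% of all genes tested. CXCL2, CXCL3, CXCL5 and CXCL14 did not pass the detection filter. The plot of all 14 probes by array shows this division.

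**Figure D1:**
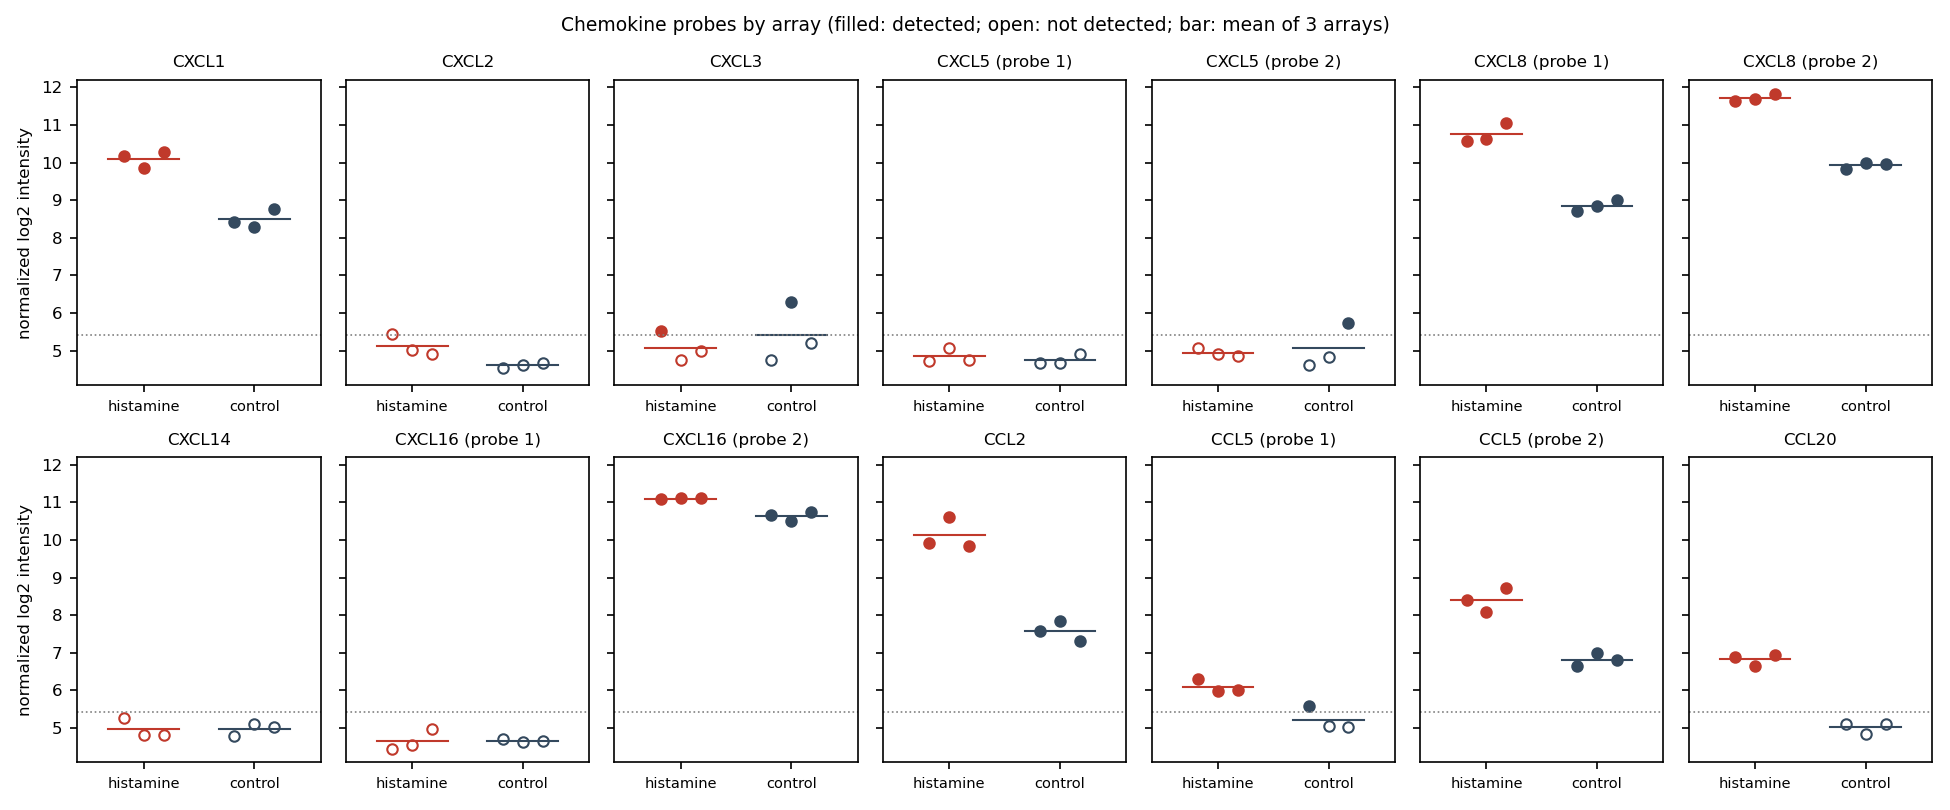
Normalized log2 intensity of the 14 probes of the 10 chemokine genes, with histamine arrays on the left and control arrays on the right of each panel (replicates 1, 2 and 3 in that order, bar at the mean of 3 arrays). Filled points were detected on that array, open points were not, and the dotted line is the mean over arrays of the lowest value of a detected probe. CXCL1, both probes of CXCL8, CCL2, probe 2 of CCL5 and probe 2 of CXCL16 lie above that line on all arrays, and CCL20 does so on the histamine arrays.

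CXCL8, or interleukin 8, is the main human neutrophil attractant and has 2 probes. Its brighter probe read 11.65, 11.69 and 11.83 (normalized log2 intensity) on histamine replicates 1, 2 and 3, against 9.83, 9.99 and 9.97 on the control replicates. The spread within each group, 0.0919 (SD, histamine) and 0.0876 (SD, control), was far smaller than the distance between the groups. CXCL8 rose 3.47-fold, a log2 difference of 1.79 ± 0.11 (SE, n = 3 arrays each; limma adjusted p = 3.84e-09). The other probe of CXCL8 read 10.58, 10.62 and 11.06 on the histamine arrays, against 8.71, 8.84 and 9.02 on the control arrays. That probe gave a log2 difference of 1.90 ± 0.14 when all kept probes were tested singly (limma adjusted p = 5.02e-08), where 11.0% of the probes were called higher and 21.9% in either direction. The 95% intervals of the 2 probes, 1.56 to 2.02 and 1.59 to 2.2, overlapped over most of their length. Before any correction the brighter probe had signals of 3081, 2850 and 3764 on the histamine arrays, against 1024, 1437 and 1017 on the control arrays.

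CXCL1, also called GRO alpha, is a neutrophil attractant encoded on chromosome 4 near CXCL8. It read 10.19, 9.86 and 10.28 on the histamine arrays, against 8.43, 8.30 and 8.78 on the control arrays (normalized log2 intensity). The lowest histamine array lay well above the highest control array. CXCL1 rose 3.05-fold, a log2 difference of 1.61 ± 0.15 (SE, n = 3 arrays each; limma adjusted p = 1.81e-06). Without histamine replicate 1 the log2 differences of CXCL1 and CXCL8 were 1.57 ± 0.18 and 1.83 ± 0.13.

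CXCL2 and CXCL3, the closest paralogs of CXCL1, did not follow it above background. CXCL2 read 5.44, 5.02 and 4.92 on the histamine arrays, against 4.53, 4.61 and 4.68 on the control arrays (normalized log2 intensity), and its detection p-values ran from 0.0519 to 0.283 with histamine and from 0.640 to 0.909 without. The groups did not overlap, but no array passed detection, so no fold is given. With no filter on dim probes the fitted log2 difference of CXCL2, which is no measured fold, was 0.52 ± 0.16. Its limma adjusted p over 20046 genes was 0.0591. CXCL3 was detected on histamine replicate 1 and on control replicate 2 alone, with 5.51, 4.74 and 4.98 on the histamine arrays, against 4.74, 6.30 and 5.21 on the control arrays. The CXCL3 groups overlapped (log2 difference -0.34 ± 0.34 with no filter, limma adjusted p = 0.633): the highest value was that of a control array, and the lowest was shared by 1 array of each group. Each of CXCL2 and CXCL3 has a single probe here.

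CXCL5, another neutrophil attractant of the same chromosome 4 group, was near background on both of its probes. Its first probe was detected on no array, with 4.72, 5.07 and 4.76 on the histamine arrays, against 4.67, 4.67 and 4.90 on the control arrays. Its second probe was detected on control replicate 3 alone, with 5.08, 4.90 and 4.86 on the histamine arrays, against 4.61, 4.82 and 5.74 on the control arrays. The groups overlapped on both probes, and a change of CXCL5 was not detectable at this signal over background. CXCL14 was detected on no array, with 5.26, 4.80 and 4.81 on the histamine arrays, against 4.79, 5.10 and 5.03 on the control arrays, and its groups overlapped as well.

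The proximal promoters of these genes are shown because close relatives in sequence differed in whether their transcripts passed the detection filter. RefSeq promoter windows (GRCh38.p14, 250 bases before to 50 after each annotated gene start) were matched for 7 of the 10 genes, CXCL1, CXCL2, CXCL3, CXCL5, CXCL8, CXCL14 and CCL20. Printed below are the last 130 bases before the start, read 5′ to 3′ along the gene, and capitals mark matches of the NF-kB like motif GGNNTTTCC on either strand. CXCL1 is at chr4:73869263-73869392 (plus strand), CXCL2 at chr4:74099196-74099325 (minus strand) and CXCL3 at chr4:74038690-74038819 (minus strand). CXCL5 is at chr4:73998678-73998807 (minus strand), CXCL8 at chr4:73740439-73740568 (plus strand) and CCL20 at chr2:227813712-227813841 (plus strand).
CXCL8: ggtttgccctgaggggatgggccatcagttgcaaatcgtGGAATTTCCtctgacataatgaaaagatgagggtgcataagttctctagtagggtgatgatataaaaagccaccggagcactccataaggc
CXCL1: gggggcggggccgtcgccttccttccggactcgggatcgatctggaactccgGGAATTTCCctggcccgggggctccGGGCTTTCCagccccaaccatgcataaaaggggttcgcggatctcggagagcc
CCL20: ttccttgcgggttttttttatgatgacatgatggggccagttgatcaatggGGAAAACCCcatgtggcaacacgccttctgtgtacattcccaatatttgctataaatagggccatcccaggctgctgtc
CXCL2: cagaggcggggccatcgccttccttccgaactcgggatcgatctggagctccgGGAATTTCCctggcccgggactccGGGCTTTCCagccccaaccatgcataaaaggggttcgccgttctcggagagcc
CXCL3: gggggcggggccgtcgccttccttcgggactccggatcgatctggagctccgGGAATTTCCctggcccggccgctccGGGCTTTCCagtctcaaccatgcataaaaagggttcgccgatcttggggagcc
CXCL5: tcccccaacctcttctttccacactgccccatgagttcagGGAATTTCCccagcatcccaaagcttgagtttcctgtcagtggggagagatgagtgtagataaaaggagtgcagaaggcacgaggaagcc
The first 3 of these genes rose with histamine. The last 3 were at or near background, so whether they changed could not be told. The motif GGNNTTTCC was found in 6 of the 7 windows, CXCL14 being the exception, and in 6.26% of all 35116 promoter windows of the same 300 bases. CXCL1, CXCL2 and CXCL3 each held 2 matches, GGAATTTCC with its first base at -78, -77 and -78 from the gene start and GGGCTTTCC with its first base at -53 in each. Over the 250 bases before the start, CXCL1 was 81.4% identical to CXCL3 and 70.1% identical to CXCL2 in a global alignment. CXCL5 and CXCL8 held GGAATTTCC starting at -90 and -91, and CCL20 held the motif on the opposite strand, written GGAAAACCC along the gene, starting at -79.

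The other motifs searched, on both strands, were the AP-1 motif TGANTCA, the C/EBP like motif TTGCNNAA and the TATA motif TATAAA. The AP-1 motif was found in CXCL8, starting at -137, and in CXCL14, starting at -92, and in 7.71% of all windows. The C/EBP like motif was found in CXCL2 alone of the 7, on the opposite strand and starting at -188, and in 10.5% of all windows. The TATA motif was found in CXCL8 and CCL20, starting at -31 and -29, and in 11.5% of all windows. No match overlapped another. These matches are letters in the reference, and binding was not measured. Only exact matches of the letters were counted, so sites that differ from a motif by a base are missed. Before its NF-kB like match CXCL8 holds TTGCAAAT, and these letters differ from TTGCNNAA in the last base alone.

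**Figure D2:**
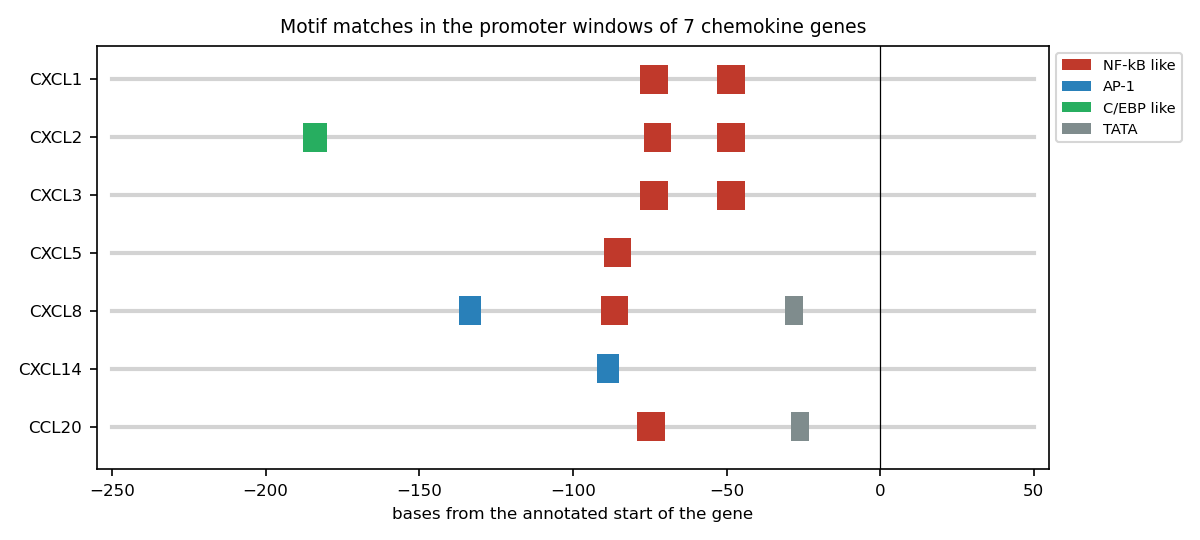
Positions of motif matches in the RefSeq promoter windows of 7 chemokine genes, in bases from the annotated gene start, with upstream to the left. CXCL1, CXCL2 and CXCL3 carry 2 NF-kB like matches at nearly the same distances, CXCL5, CXCL8 and CCL20 carry 1 each, and CXCL14 carries none.

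CXCL16, which is both a membrane-bound ligand of CXCR6 and a scavenger receptor for oxidized lipoprotein, had the smallest change of the 6. Its detected probe read 11.08, 11.11 and 11.11 on the histamine arrays, against 10.65, 10.49 and 10.75 on the control arrays (normalized log2 intensity). The histamine arrays lay close together (SD 0.0205, against 0.133 in controls), and the groups did not overlap. CXCL16 rose 1.38-fold, a log2 difference of 0.47 ± 0.11 (SE, n = 3 arrays each; limma adjusted p = 0.00499). With arrays scaled to their medians the value was 0.26 ± 0.18 and the call was lost (limma adjusted p = 0.272). Under that scaling the median log2 difference of all genes tested was -0.26, against -0.08 as reported. Before correction the signals were 2082, 1956 and 2320 on the histamine arrays, against 1728, 1944 and 1706 on the control arrays, so that control replicate 2 came close to the lowest histamine array. The other probe of CXCL16 was detected on no array, with 4.45, 4.54 and 4.97 on the histamine arrays, against 4.71, 4.62 and 4.64 on the control arrays.

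CCL2, also called MCP-1, had the largest difference of the 6 chemokines. It read 9.93, 10.60 and 9.85 on the histamine arrays, against 7.58, 7.85 and 7.31 on the control arrays (normalized log2 intensity). The signals before correction were 987, 1392 and 1034 on the histamine arrays, against 289, 414 and 246 on the control arrays. Histamine replicate 2 was the highest of its group, and the groups lay far apart. CCL2 rose 5.82-fold, a log2 difference of 2.54 ± 0.19 (SE, n = 3 arrays each; limma adjusted p = 9.08e-08). It held rank 15 by difference among the 10406 genes, and 2.74% of those genes were called higher with at least a 2-fold change. In the authors' processed values the CCL2 difference was 1.86.

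CCL5, also called RANTES, has 2 probes that both read higher with histamine. The brighter probe read 8.41, 8.08 and 8.71 on the histamine arrays, against 6.65, 6.98 and 6.81 on the control arrays (normalized log2 intensity). CCL5 rose 3.0-fold on that probe, a log2 difference of 1.58 ± 0.19 (SE, n = 3 arrays each; limma adjusted p = 2.69e-05). The dimmer probe was detected on 1 of 3 control arrays and read 6.29, 5.97 and 6.00 on the histamine arrays, against 5.57, 5.05 and 5.03 on the control arrays. It gave 0.87 ± 0.27 with probes tested singly (limma adjusted p = 0.0280), with a 95% interval of 0.30 to 1.44 against 1.17 to 2.0 for the brighter probe. The histamine arrays alone met the detection filter for the dimmer probe, so its call lends little support. With no filter and all probes tested singly, its call was lost (limma adjusted p = 0.0536). The size of the CCL5 change depended on the background step, being 1.05 ± 0.13 without background correction and 0.85 ± 0.11 in the authors' processed values, with the call kept in both.

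CCL20, also called MIP-3 alpha, was below background without histamine. Its detection p-values were at most 0.0013 on the histamine arrays, against 0.140, 0.339 and 0.164 on control replicates 1, 2 and 3. It read 6.88, 6.65 and 6.94 on the histamine arrays, against 5.10, 4.85 and 5.09 on the control arrays (normalized log2 intensity), with no overlap. The control arrays give only an upper limit. CCL20 was thus at least 2.68-fold higher with histamine on this normalized scale, the only one for which a bound was computed. That bound sets each control array at the lowest value of a detected probe on that array, and it ran from 2.57 to 2.84 when any 1 array was left out. The fitted difference of CCL20, which is no bound, was 1.81 on the log2 scale (limma adjusted p = 7.19e-05), and 0.77 without background correction and 0.52 in the authors' processed values. Its p-value lends no support, since the probe passed the filter through the histamine arrays alone. Its signals before correction were 201, 181 and 219 on the histamine arrays, against 123, 131 and 133 on the control arrays.

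**Figure D3:**
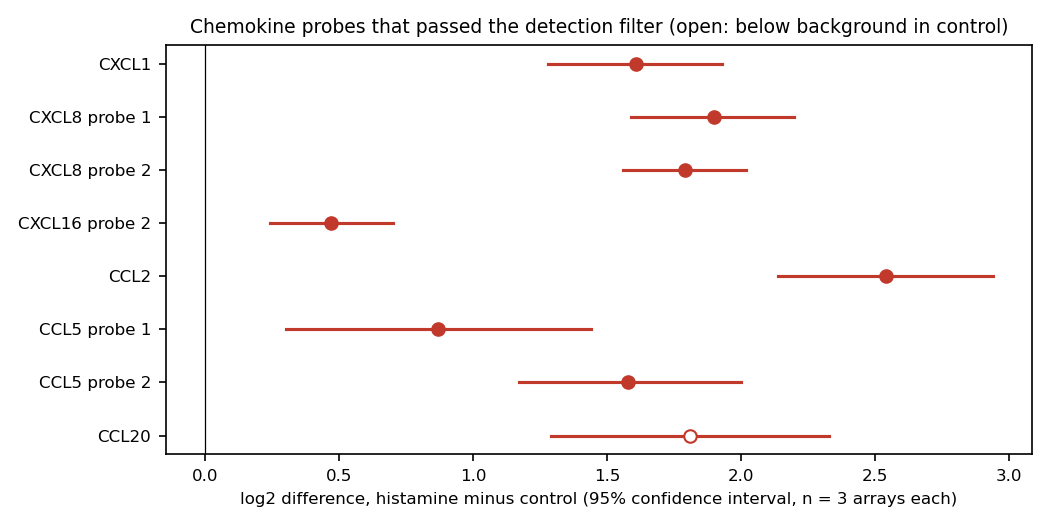
Log2 difference, histamine minus control, of the 8 chemokine probes that passed the detection filter, each tested singly, with its 95% confidence interval from limma (n = 3 arrays each). All 8 intervals lie above 0; the open point is the fitted difference of CCL20, which was below background on the control arrays.

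Arrays of a group did not order the measured chemokines in the same way. In histamine replicate 2, CCL2 lay 0.48 above its group mean (normalized log2 intensity), while CXCL1, CCL5 and CCL20 lay at -0.25, -0.32 and -0.17 from theirs. In histamine replicate 3, CXCL1, CCL5 and CCL20 lay 0.17, 0.31 and 0.12 above their group means and CCL2 lay at -0.28. CXCL8 and CXCL16 stayed within 0.10 of their group means on every histamine array. With 3 arrays a group, these deviations are a description. Histamine replicate 1 was the array with the most muscle transcript. Without it, CCL2 gave 2.64 ± 0.21, CCL5 1.58 ± 0.23 and CXCL16 0.48 ± 0.13 on the log2 scale. All 6 calls were kept, of which that of CCL20 lends no support. The bound of CCL20 was then at least 2.63-fold.

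By Pearson correlation over the 6 arrays, the genes whose normalized log2 intensity was most like that of CXCL8 were MALL (0.9989), a membrane raft protein of the MAL family, and DKK3 (0.9983), a secreted glycoprotein. They were followed by IL6 (0.9983), a proinflammatory cytokine, S100A9 (0.9975), a subunit of calprotectin, and KRT16 (0.9966), a stress keratin. All 5 were called higher, by 0.26, 0.57, 3.23, 3.89 and 2.49 on the log2 scale, and the call of MALL was lost in 14 of 17 alternatives. The size of the IL6 difference depended on the background step, being 1.83 without background correction and 1.42 in the authors' processed values. IL6 did not pass the stricter detection filter, which had to be met on all 6 arrays. On which arrays it was detected is not given here, so its 3.23 is a fitted difference and not a measured fold. On the mean of its kept probes the difference of KRT16 was 1.64. Of the chemokines, CCL20 came nearest to CXCL8 (0.9879, rank 25), followed by CCL5 (0.9794), CXCL1 (0.9758), CCL2 (0.9689) and CXCL16 (0.9438). The 6 arrays form 2 groups, so each of these values rests mainly on the difference between groups.

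Other chemokines were mostly undetected in HaCaT cells. Of 33 further chemokine genes listed, 32 are on the array, 3 passed the detection filter, 1 rose and none fell, beside 9.29% of all genes called higher. With 3 genes tested, nothing is read from that share. Detected on no array were 19 of them, among them the interferon-induced CXCL9 and CXCL10 and the T cell attractants CCL17 and CCL22. CXCL6, the neutrophil attractant most like CXCL5 in sequence, read 7.92, 7.68 and 7.89 on the histamine arrays, against 7.34, 7.38 and 7.03 on the control arrays (normalized log2 intensity). CXCL6 rose by 0.58 ± 0.18 (SE, n = 3 arrays each; limma adjusted p = 0.0289) on this probe, a call lost in 7 of 17 alternatives, among them median scaling, no filter on dim probes, and leaving out any 1 array except histamine replicate 2. Its other probe was dimmer and moved further, with 7.34, 7.12 and 7.39 on the histamine arrays, against 5.56, 5.22 and 5.64 on the control arrays. That probe gave 1.81 ± 0.23 tested singly (limma adjusted p = 2.26e-05) and was detected on 2 of 3 control arrays. PPBP, a platelet chemokine, and CCL26, an eosinophil attractant, gave -0.47 ± 0.24 and -0.15 ± 0.29 and did not pass (limma adjusted p = 0.170 and 0.745).

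Chemokine receptors were for the most part below detection. Of 20 on the array, 4 passed the filter, none was called higher and 1 was called lower, beside 12.0% of all genes called lower, and 11 were detected on no array, among them CXCR2, the receptor of CXCL1, and CXCR6, the receptor of CXCL16. XCR1, the receptor of lymphotactin, read 4.89, 5.84 and 4.91 on the histamine arrays, against 6.85, 6.78 and 5.85 on the control arrays, and was detected on 1 of 3 histamine arrays. The other 2 histamine arrays were not above background, and the probe passed the filter mainly through the control arrays, so its call lends little support. The fitted log2 difference of XCR1 was -1.28 ± 0.32 (SE, n = 3 arrays each; limma adjusted p = 0.00944), and -0.37 in the authors' processed values. The call was lost without control replicate 1 or 2, and histamine replicate 2 nearly reached control replicate 3. ACKR3, an atypical receptor that takes up chemokines, gave 0.08 ± 0.15, and the probes of CCR6 and CXCR1 gave 0.06 ± 0.10 and -0.22 ± 0.28. None of these 3 passed the test. CCR6 has 3 probes, of which the measured one read 13.27 to 13.59 over all arrays (normalized log2 intensity), while its others did not pass the detection filter. Of the 4 histamine receptors HRH1 alone was measured, and it gave -0.03 ± 0.26 (limma adjusted p = 0.951), while HRH2, HRH3 and HRH4 were detected on no array.

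Both interleukin 1 genes, whose products induce CXCL8, CCL20 and CXCL1 in keratinocytes, were higher with histamine. Among inducing cytokines and their receptors 9 of 18 were measured, 2 rose, none fell and 7 did not pass. The 22.2% called was close to the 21.3% of all genes called in either direction. IL1A, interleukin 1 alpha, read 9.29, 8.77 and 9.22 on the histamine arrays, against 7.09, 7.64 and 7.62 on the control arrays (normalized log2 intensity). It rose 3.12-fold, a log2 difference of 1.64 ± 0.19 (SE, n = 3 arrays each; limma adjusted p = 1.21e-05). IL1B, interleukin 1 beta, read 9.94, 9.49 and 10.01 on the histamine arrays, against 9.15, 9.12 and 8.99 on the control arrays, and rose 1.66-fold (0.73 ± 0.14; limma adjusted p = 0.00177). Neither gene's groups overlapped. Without histamine replicate 1, IL1A gave 1.55 ± 0.21 and IL1B 0.67 ± 0.17, and both calls were kept. TNF, tumour necrosis factor, and IL1R1, a chain of the interleukin 1 receptor, were detected on no array. IL17RA, a subunit of the interleukin 17 receptor, gave -0.36 ± 0.24, and IL1RAP, the accessory chain of the interleukin 1 receptor, gave -0.31 ± 0.19 on its brightest probe and 1.18 on another, which passed when tested singly (limma adjusted p = 0.000497). The median log2 difference of the 9 was 0.11, against -0.08 for all genes tested.

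Genes of NF-kB signalling were called about as often as all genes. Of 15 listed genes 14 were measured, 3 rose, none fell and 11 did not pass, a share of 21.4% called against 21.3% of all genes, and the median log2 difference was 0.15. TNFAIP3, the enzyme A20 that restrains NF-kB signalling, read 7.82, 7.80 and 8.41 on the histamine arrays, against 6.80, 6.96 and 6.66 on the control arrays. TNFAIP3 rose 2.30-fold (1.20 ± 0.20; limma adjusted p = 0.000507) and kept its call in all 17 alternatives, with 0.61 in the authors' processed values. NFKBIE, which holds NF-kB in the cytoplasm, rose by 0.77 ± 0.23, and TNIP1, a partner of A20, rose by 0.42 ± 0.14 (limma adjusted p = 0.0217 and 0.0355). The value of TNFAIP3 without histamine replicate 1 was 1.30 ± 0.23. The calls of NFKBIE and TNIP1 were lost in 5 and 8 of 17 alternatives, median scaling and no filter on dim probes among them, and the median of the list was -0.05 with median scaling. NFKB2 and REL, both subunits, gave 0.78 ± 0.30 and 0.67 ± 0.25 and did not pass (limma adjusted p = 0.0671 and 0.0681). NFKB2 did pass on the mean of its kept probes (0.68, limma adjusted p = 0.0269) and without control replicate 1 (1.10, limma adjusted p = 0.0232). NFKBIA, the inhibitor most often read as an NF-kB target, gave 0.08 ± 0.11.

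All 12 listed transcription factors of the AP-1 and C/EBP families were measured, 2 rose, 1 fell and 9 did not pass. The 25% called was close to the 21.3% of all genes. ATF3, a stress-induced factor, read 9.95, 10.64 and 10.73 on the histamine arrays, against 8.50, 8.89 and 8.64 on the control arrays, and rose 3.40-fold (1.76 ± 0.17; limma adjusted p = 3.13e-06). FOS fell by 0.70 ± 0.13 (limma adjusted p = 0.00120), with 11.47, 12.15 and 11.80 on the histamine arrays, against 12.55, 12.54 and 12.44 on the control arrays. CEBPD rose by 0.42 ± 0.13 (limma adjusted p = 0.0352), a call lost in 8 of 17 alternatives. With median scaling 1 of the 12 rose and 2 fell. ATF3, without histamine replicate 1, gave 2.01 ± 0.16 and FOS -0.53 ± 0.12, and both calls were kept.

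Many chemokine transcripts carry AU-rich elements that bind decay factors. Of the 8 genes measured from a list of such factors and regulators of this decay, 1 rose (12.5%, beside 9.29% of all genes called higher). ZFP36L1, which marks such transcripts for decay, read 10.57, 10.82 and 11.16 on the histamine arrays, against 8.66, 9.02 and 9.71 on the control arrays. It rose 3.30-fold (1.72 ± 0.20; limma adjusted p = 1.66e-05), while its paralog ZFP36L2 gave -0.19 ± 0.13 and did not pass. The value of ZFP36L1 without histamine replicate 1 was 1.86 ± 0.21. The other 7 did not pass, DUSP1 (0.35 ± 0.13) and ZC3H12A (0.14 ± 0.23) among them. Of the proteases that release or cut chemokines, MMP1, collagenase 1, rose by 0.62 ± 0.20 (limma adjusted p = 0.0320) with overlapping groups, a call lost in 7 of 17 alternatives. It was 1 of 4 measured, and the other 3 did not pass. ADAM10, which sheds CXCL16, gave 0.11 ± 0.14 on its brightest probe and 1.21 ± 0.22 on the other (limma adjusted p = 0.000676 with probes tested singly). ADAM17, a sheddase of the same family, gave -0.37 ± 0.16 on its brightest probe and 0.06 and 0.90 on the others, of which the second passed when tested singly (limma adjusted p = 0.0193).

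**Figure D4:**
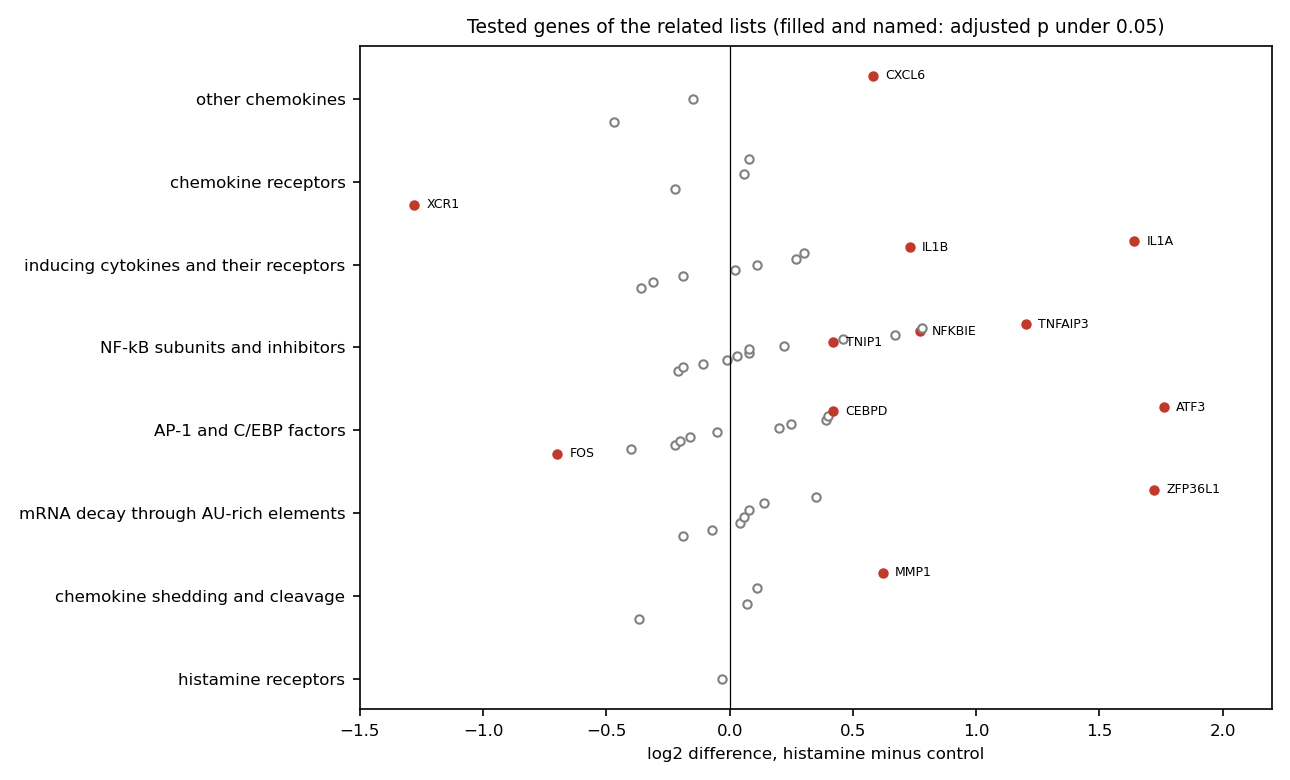
Log2 difference, histamine minus control, of each tested gene in 8 lists related to the chemokines, 1 row per list and 1 point per gene. Filled, named points passed an adjusted p of 0.05; IL1A, ATF3 and ZFP36L1 lie at 1.64, 1.76 and 1.72, and XCR1 and FOS are the named genes below 0.

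**Figure D5:**
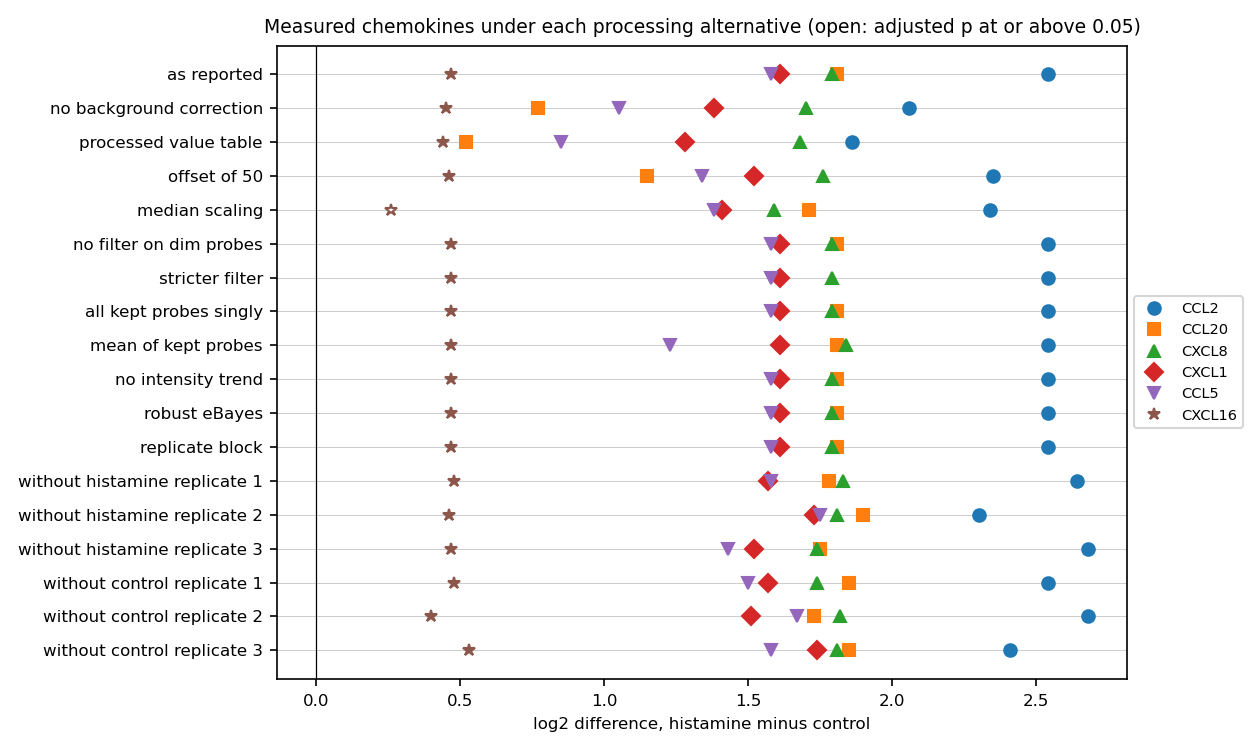
Log2 difference, histamine minus control, of the 6 measured chemokines as reported (top row) and under each processing alternative or with 1 array left out. All values lie above 0, CCL20 and CCL5 are smallest in the authors' processed values, CCL20 has no value under the stricter filter, and the single open symbol is CXCL16 with median scaling.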

How the data were processed

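Total RNA of 3 histamine and 3 control HaCaT samples was labelled and read on Illumina HT-12 bead arrays, and groups were taken from the sample titles. Each intensity in the authors' deposited signal file is a probe's average over its beads, before any correction or normalization, per the file headers. The detection p-values rank each probe among negative control beads, per the file headers. The authors' deposited value table lies on a log2-like scale, and all its arrays share the median 7.46. How it was transformed is unknown here, beyond the names GenomeStudio 2010.1 and lumi, per the submitters' processing notes.

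Signals of 47322 probes were background corrected (normexp, offset 16, background inferred from the detection p-values), then quantile normalized and log2 transformed with limma 3.58.1 in R 4.3.3. Folds of dim probes are therefore understated. Probes detected (p-value under 0.05) on 3 or more of the 6 arrays were kept (17871 probes), and the brightest kept probe with 1 symbol stood for its gene (10406 genes; 8 of the 14 chemokine probes were kept). Of all probes 30112 carry 1 gene symbol, 8 several and 17202 none; 30073 symbols matched RefSeq by Entrez identifier and 0 were updated. A 2-group limma model with an intensity trend was fitted, two-sided, with Benjamini-Hochberg adjustment over all genes. The fit was tested on simulated data. With 3 arrays a group, the number of arrays limits the precision. The 10 genes, the lists and the motifs were chosen with earlier results of these data known. Named genes are all members, the up to 4 measured genes of each list that differed most, and the 5 most like CXCL8; TNIP1, NFKBIA and the genes detected on no array were chosen after their values were seen. Promoter windows are from RefSeq (GRCh38.p14), aligned with Biopython 1.88. No protein sequences were used here. Alternatives were no background correction, the processed values, an offset of 50, median scaling, no filter, a stricter filter (0.01 on all 6 arrays), probes tested singly, the mean of probes, no trend, robust moderation, a replicate block, and each array left out.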

Additional observations from a re-analysis of the deposited data

How the results depend on the processing

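The count of chemokines called higher was 6 as reported and 6 when any 1 array was left out. It was 5 with median scaling (without CXCL16) and 5 with the stricter filter, which left CCL20 out. Wherever CCL20 is counted, its call lends no support. None was called lower under any alternative. CXCL16 with median scaling (0.26, limma adjusted p = 0.272) was the 1 call lost; the cause was not tested. Over the alternatives the log2 differences ran from 1.86 to 2.68 for CCL2, 1.59 to 1.84 for CXCL8, 1.28 to 1.74 for CXCL1, 0.85 to 1.75 for CCL5, 0.26 to 0.53 for CXCL16 and 0.52 to 1.90 for CCL20; the low values of CCL5 and CCL20 came from the authors' processed values. The count of all genes changed, 2220 as reported (967 higher and 1253 lower), was 1476 with no filter on dim probes (794 lower), 1372 without the intensity trend (637 higher and 735 lower) and, counted over probes, 3915 with probes tested singly (1968 higher and 1947 lower). With median scaling 456 were higher and 1816 lower, or 20.1% higher against 43.6%. Leaving out 1 array gave 1220 to 2547 changed genes, 624 to 1091 higher and 596 to 1456 lower; the count was 1459 without control replicate 1 and 1220 without control replicate 2. The replicate number as a block gave 1905 changed genes (873 higher and 1032 lower) and kept all 6 chemokine calls; the numbers are not shown to pair samples, since deviations of same-numbered samples correlated at -0.0314, -0.0287 and -0.0458 over genes. Dim probes are limited by signal over background: CXCL2, CXCL3, CXCL5 and CXCL14 could change below that level without being seen here.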
